A study of Mus musculus with 8 samples.

Results

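Bone marrow-derived macrophages with a disrupted Nos2 gene (labelled iNOS deficient, here iNOS-/-) were compared with wild-type (WT) macrophages after M1 activation. The comparison rests on the 4 arrays whose labels give M1 activation, 2 of each genotype, out of 8 arrays in the series, and all probes on them were considered. The marrow came from mice 8 weeks old on a C57BL/6J background, and the cells of all groups were grown for 7 days in GM-CSF. M1 cells then received LPS at 200 ng per ml and IFN-γ at 10 ng per ml for 6 h. The other 4 arrays hold unstimulated cells, 2 of each genotype, grown the same way without LPS or IFN-γ. The methods name the mutant line as B6.129P2-Nos2tm1Lau/J, a germline allele, so the gene was altered in every cell of the animal and not in macrophages alone. Cultures of marrow in GM-CSF are known to hold dendritic cells and granulocytes beside macrophages. Nothing in the labels tells if the replicate arrays stand for separate mice or cultures, so p-values measure only the spread between these arrays, which may be technical.

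LPS, a bacterial cell wall component, engages Toll-like receptor 4 and through it the NF-kB and IRF transcription factors, while IFN-γ acts through JAK kinases and STAT factors. Given together they drive macrophages into the classically activated M1 state, which produces inflammatory cytokines and presents antigen. Inducible nitric oxide synthase, the product of Nos2, is itself switched on in M1 cells and makes nitric oxide from arginine. Nitric oxide kills microbes and is also known to modify haem and thiol groups of host proteins, including enzymes of the mitochondria.

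All levels below are log2 intensities scaled between arrays, with values under 1 set to 1 before the logarithm was taken, and each group holds n = 2 arrays. A level between 0 and about 3 is near the background. A change was called when limma gave a Benjamini-Hochberg adjusted p under 0.05 over 13868 probes, and log2 fold changes are iNOS-/- M1 over WT M1 unless stated otherwise. Where several probes measure a gene, the brightest is used.

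Nos2 itself was measured by a probe of 50 bases that starts at position 3546 of the transcript. It is shown because the targeted gene is the natural check of the genotype labels.
Nos2 probe: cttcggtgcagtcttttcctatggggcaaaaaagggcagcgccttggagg
Its level was 7.52 and 7.69 on the iNOS-/- M1 arrays against 7.45 and 7.04 on the WT M1 arrays (log2 fold change 0.36, SE 0.32, adjusted p = 0.397, not called). Both groups were far above the unstimulated arrays, where the probe was not detected, and the gene was not lower in iNOS-/- cells. Whether this stretch is lost in the targeted allele is not given in the sources used here, so the probe checks nothing about the labels, and every direction below is that of the labels. A transcript that did part the labelled genotypes was Erdr1, at 7.42 to 8.05 over the 4 iNOS-/- arrays and 0.23 to 2.21 over the 4 WT arrays. The arrays went against another label. All mice are labelled female, yet both probes for Xist, the RNA that silences an X chromosome in female cells, were undetected on all 8 arrays. Transcripts of the Y-linked genes Eif2s3y (7.88 to 9.49), Jarid1d (4.59 to 5.51) and Uty (2.56 to 4.13) were detected on all 8 arrays, as was the brightest of 3 probes for Ddx3y (9.09 to 9.62). Detection of these probes was alike in every group, so it does not divide the groups compared. The level of Eif2s3y did, at 7.88 to 8.25 over the 4 WT arrays and 8.72 to 9.49 over the 4 iNOS-/- arrays.

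Replicate arrays of a group differed by 0.161 to 0.188 in log2 level at the median probe. Between iNOS-/- M1 and WT M1 arrays it was 0.670 to 0.694. Unstimulated iNOS-/- arrays lay closer to WT M1 arrays (0.344 to 0.366) than to WT unstimulated arrays (0.484 to 0.491). Mean intensity ran from 155 to 224 over the 8 arrays, and 46.0% to 49.3% of the 25697 probes were detected.

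After M1 activation, genotype separated a large part of what these cells express. Of 10163 genes tested, 2557 were called higher in iNOS-/- M1 cells, which is 25.2% of the genes tested, and 2541 were called lower, which is 25.0%. Together 50.2% of genes were called, and the median log2 fold change of all genes was 0.00. Both iNOS-/- M1 arrays lay above both WT M1 arrays in 3908 of the 10163 genes, and below both in 3791. Groups free of overlap were thus common. These shares and counts are the background against which each gene family below is to be read. At the level of probes, 3455 of the 6723 calls were at least 2-fold. Adding an intercept to the scaling line moved the median of all probes from 0.00 to 0.20. The plot of change against brightness shows calls in both directions over the whole range of brightness.

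**Figure D1:**
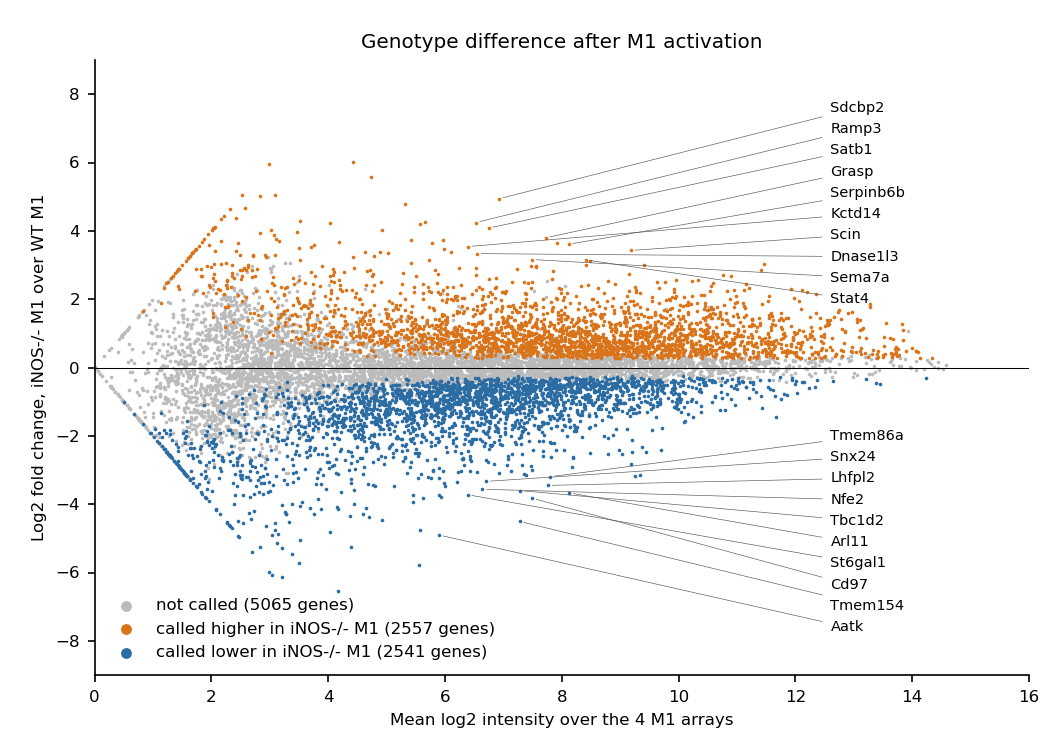
Log2 fold change between iNOS-/- M1 and WT M1 cells (y axis) against the mean log2 intensity over the 4 M1 arrays (x axis) for the brightest probe of each of the 10163 genes tested. Called genes are coloured by direction, and the 20 genes of largest change chosen by the naming rule are labelled. The 2557 genes called higher and the 2541 called lower lie on both sides of a median of 0.00.

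The genes of largest change were taken among called genes that were bright in the higher group, did not overlap between the groups and are not M1 markers named in the paper. These changes chose the genes, so they are described here without further weight. The largest increase was that of Sdcbp2, which encodes syntenin-2, a PDZ-domain adaptor. Its level was 9.42 and 9.37 on the iNOS-/- M1 arrays against 4.43 and 4.48 on the WT M1 arrays (log2 fold change 4.94, SE 0.14, adjusted p = 0.000105). Ramp3, a subunit that shapes the ligand choice of calcitonin-family receptors, followed with 8.67 and 8.63 against 4.34 and 4.48 (log2 fold change 4.24, SE 0.26, adjusted p = 0.000295). Satb1, a chromatin organiser best known from T cells, was at 8.80 and 8.77 against 5.15 and 4.26 (log2 fold change 4.08, SE 0.29, adjusted p = 0.000423). In each of these genes the arrays of a group lay within 1 log2 unit of each other and the groups were more than 3 log2 units apart.

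The remaining increases named by the rule joined cytoskeletal, immune and secreted proteins. Scin, which encodes the actin-severing protein scinderin, was at 10.90 and 10.89 against 7.49 and 7.45 (log2 fold change 3.43, SE 0.26, adjusted p = 0.000507). Stat4, the transcription factor that carries IL-12 signals, was at 9.99 and 9.98 against 6.81 and 6.86 (log2 fold change 3.15, SE 0.39, adjusted p = 0.00215). Dnase1l3, a secreted DNase, was at 8.16 and 8.28 against 4.86 and 4.91 (log2 fold change 3.33, SE 0.08, adjusted p = 0.000101), and was undetected on the 4 unstimulated arrays. Sema7a, a membrane-anchored semaphorin, had a log2 fold change of 3.16, and Serpinb6b, an intracellular protease inhibitor, one of 3.61. For Grasp, a scaffold of receptor trafficking, it was 3.80, and for Kctd14 it was 3.54. Before activation the genotype difference was larger in Scin (6.25), Grasp (6.19), Serpinb6b (5.78) and Sema7a (5.40), each with a called negative interaction. The genes Stat4 (4.49), Kctd14 (3.88), Ramp3 (3.20) and Sdcbp2 (1.68) were also called higher before activation. Satb1 (0.58) and Dnase1l3 were not.

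The largest decrease was that of Aatk, a membrane-bound kinase. Its level was 3.14 and 3.75 on the iNOS-/- M1 arrays against 8.33 and 8.38 on the WT M1 arrays (log2 fold change −4.90, SE 0.20, adjusted p = 0.000149). Tmem154, a membrane protein, was at 5.02 and 5.03 against 9.47 and 9.59 (log2 fold change −4.51, SE 0.09, adjusted p = 5.84e-05). Cd97, an adhesion receptor of leukocytes now named Adgre5, was at 5.65 and 5.51 against 9.36 and 9.45 (log2 fold change −3.82, SE 0.13, adjusted p = 0.000116). These 3 genes were bright on both WT M1 arrays and dim on both iNOS-/- M1 arrays. St6gal1, the enzyme that adds terminal sialic acid to glycoproteins, was at 4.36 and 4.69 against 8.13 and 8.38 (log2 fold change −3.72, SE 0.16, adjusted p = 0.000152), and Arl11, a small GTPase, at 6.27 and 6.31 against 9.92 and 10.01 (log2 fold change −3.67, SE 0.12, adjusted p = 0.000116). Nfe2, a bZIP transcription factor, was at 4.81 and 4.91 against 8.43 and 8.42 (log2 fold change −3.56, SE 0.08, adjusted p = 0.000101), and lay between 8.42 and 8.50 on all 6 other arrays. For Tbc1d2, Lhfpl2, Snx24 and Tmem86a the log2 fold changes were −3.60, −3.45, −3.33 and −3.19. In all 10 of these genes the unstimulated iNOS-/- arrays lay above the iNOS-/- M1 arrays.

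**Figure D2:**
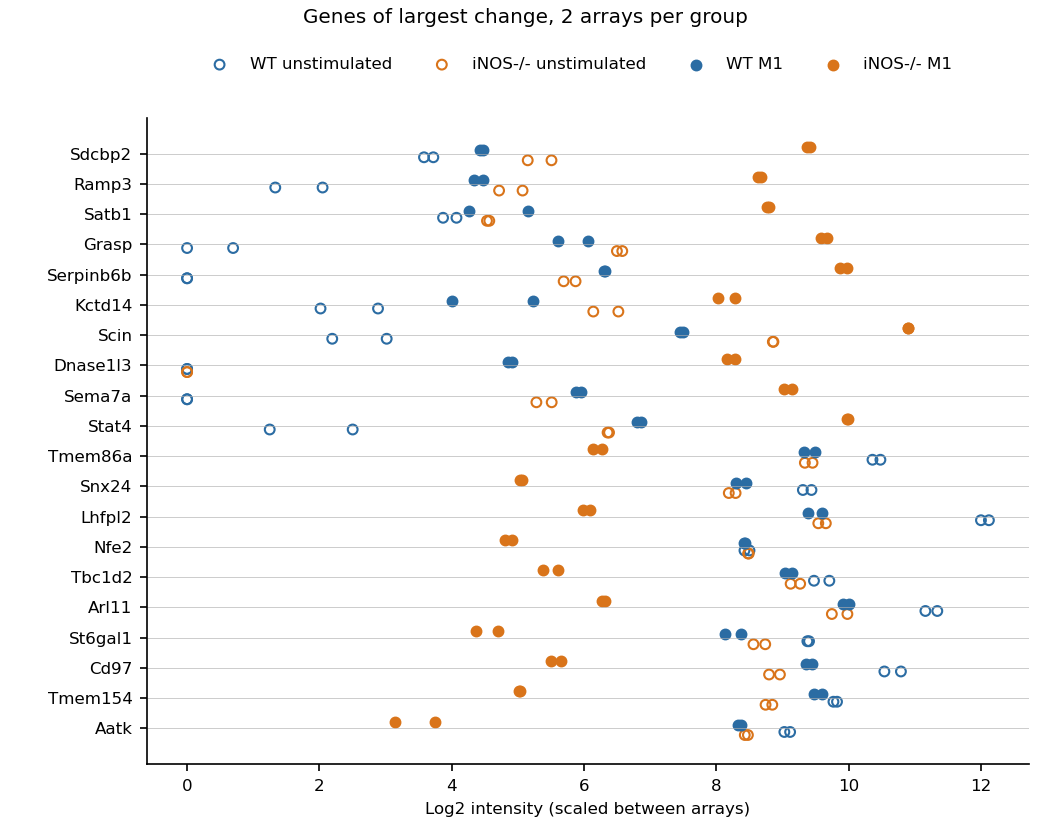
Log2 intensity (x axis) of the 20 genes of largest change on each of the 8 arrays, with filled circles for M1 arrays and open circles for unstimulated arrays, WT in blue and iNOS-/- in orange, and groups shifted slightly up or down so that they can be told apart. The 2 iNOS-/- M1 arrays lie apart from the 2 WT M1 arrays in every gene shown, as the rule required.

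Cytokine genes were mostly higher in iNOS-/- M1 cells. Left out of this list were the marker genes that the paper names for its microarray. Of the other pro-inflammatory cytokines, 15 of the 20 genes tested were called higher, with a median log2 fold change of 1.46. Il12b was kept, although its protein, IL-12 p40, was measured in the paper by intracellular staining and ELISA. Il12b, the shared subunit of IL-12 and IL-23, was at 6.66 and 6.17 on the iNOS-/- M1 arrays against 3.55 and 2.78 on the WT M1 arrays (log2 fold change 3.25, SE 0.43, adjusted p = 0.00257), and Il23a, the other subunit of IL-23, was at 7.97 and 7.80 against 5.69 and 5.79 (log2 fold change 2.14, SE 0.17, adjusted p = 0.000512). Ebi3, a subunit of IL-27, was at 11.08 and 11.21 against 9.45 and 9.52 (log2 fold change 1.66, SE 0.10, adjusted p = 0.000276). Il27, its other subunit, was at 10.77 and 10.53 against 8.97 and 8.89 and missed the threshold (log2 fold change 1.72, SE 0.77, adjusted p = 0.121, not called), which it passed when only the 4 M1 arrays were fitted (adjusted p = 0.00963). Il1b, already among the brightest probes, was at 14.35 and 14.57 against 13.08 and 13.27 (log2 fold change 1.29, SE 0.12, adjusted p = 0.000784). Ifnb1, which encodes interferon-β, was at 7.39 and 7.42 against 5.77 and 5.82 (log2 fold change 1.61, SE 0.38, adjusted p = 0.0199), a call that was lost when any 1 of the 4 M1 arrays was left out, when probes were not filtered by detection and when the scaling line had an intercept (adjusted p = 0.0524 to 0.109). In all of these genes both iNOS-/- M1 arrays lay above both WT M1 arrays. Tnfsf10, the death ligand TRAIL, was undetected on both WT M1 arrays and at least 4.40-fold higher in iNOS-/- M1 cells (adjusted p = 0.000130).

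Chemokines followed the same direction, and 13 of the 18 genes tested were called higher and 1 lower, with a median log2 fold change of 1.06. Ccl7, a monocyte attractant, was at 10.64 and 10.40 on the iNOS-/- M1 arrays against 7.70 and 7.89 on the WT M1 arrays (log2 fold change 2.73, SE 0.14, adjusted p = 0.000230). Cx3cl1, the membrane-bound chemokine fractalkine, was at 9.67 and 9.66 against 7.39 and 7.10 (log2 fold change 2.42, SE 0.19, adjusted p = 0.000545), and Ccl5 at 14.21 and 14.20 against 12.34 and 12.37 (log2 fold change 1.84, SE 0.10, adjusted p = 0.000231). The exception was Ccl6, at 11.32 and 11.53 against 12.15 and 12.24 (log2 fold change −0.77, SE 0.11, adjusted p = 0.00346). Both groups were free of overlap in each of these 4 genes. Under quantile normalization the median of the list was 0.64, and under neqc, which fits the background, 0.50.

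The genes that restrain inflammation rose beside those that drive it. Of the anti-inflammatory and decoy factors, 11 of the 17 genes tested were called higher and 2 lower, with a median log2 fold change of 0.97. Dusp2, a phosphatase that switches off MAP kinases, was at 9.87 and 9.96 on the iNOS-/- M1 arrays against 6.81 and 7.02 on the WT M1 arrays (log2 fold change 2.999, SE 0.20, adjusted p = 0.000360). Il1rn, the natural antagonist of the IL-1 receptor, was at 12.31 and 12.19 against 9.96 and 10.03 (log2 fold change 2.26, SE 0.09, adjusted p = 0.000133), and Tnfaip3, the ubiquitin-editing enzyme A20, at 10.97 and 10.90 against 9.04 and 9.17 (log2 fold change 1.83, SE 0.10, adjusted p = 0.000227). Il10 was undetected on both WT M1 arrays and at least 2.52-fold higher in iNOS-/- M1 cells (adjusted p = 0.0119), but without the first array of either M1 group the call was lost (adjusted p = 0.0580 and 0.0615), as it was with a floor of 16 (adjusted p = 0.322). The suppressors of cytokine signalling Socs1 (1.41) and Socs3 (1.23) and the IRAK antagonist Irak3 (1.20) were also called higher, with the log2 fold change in brackets. The 2 genes called lower were Tgfb1, at 9.07 and 9.07 against 9.77 and 9.55 (log2 fold change −0.59, SE 0.11, adjusted p = 0.00764), and Tgfbi, at 10.90 and 11.00 against 12.34 and 12.44 (log2 fold change −1.44, SE 0.10, adjusted p = 0.000355).

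Genes of the transcription factors that carry LPS and interferon signals were higher as a group. In the NF-kB family, 11 of the 12 genes tested were called higher, with a median log2 fold change of 1.35. Nfkb2 was at 9.11 and 9.17 on the iNOS-/- M1 arrays against 6.91 and 6.78 on the WT M1 arrays (log2 fold change 2.29, SE 0.21, adjusted p = 0.000844), Rel at 8.77 and 8.78 against 6.75 and 6.98 (log2 fold change 1.91, SE 0.12, adjusted p = 0.000309) and Rela at 11.08 and 11.14 against 9.84 and 9.91 (log2 fold change 1.24, SE 0.08, adjusted p = 0.000345). The inhibitors of this pathway Nfkbib (2.07), Nfkbie (1.57) and Nfkbiz (1.61) rose with the subunits. The remaining gene of the 12 was Ikbkg, a kinase regulator, with a log2 fold change of −0.08. Among IRF and STAT factors, 10 of the 14 genes tested were called higher and 1 lower, with a median log2 fold change of 0.96. Irf7, the amplifier of type I interferon production, was at 10.01 and 10.11 against 7.46 and 7.61 (log2 fold change 2.52, SE 0.14, adjusted p = 0.000259). Irf4, a factor tied to alternative activation, was the one member called lower, at 8.20 and 8.13 against 8.72 and 8.88 (log2 fold change −0.63, SE 0.10, adjusted p = 0.00483).

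Upstream of these factors the picture was divided. Of the Toll-like receptors and their adaptors, 9 of the 21 genes tested were called higher and 7 lower, with a median log2 fold change of 0.28, a median that came to −0.01 under neqc and quantile normalization alike. Tlr4, the LPS receptor, was at 6.05 and 6.18 on the iNOS-/- M1 arrays against 8.40 and 8.16 on the WT M1 arrays (log2 fold change −2.17, SE 0.13, adjusted p = 0.000286), and its levels did not overlap between the groups. Its co-receptor Cd14, in contrast, was at 13.04 and 12.93 against 11.53 and 11.48 (log2 fold change 1.48, SE 0.13, adjusted p = 0.000731). Tlr8 was lower at 2.59 and 3.73 against 5.77 and 6.35 (log2 fold change −2.90, SE 0.40, adjusted p = 0.00305), while Tlr1 and Tlr6, partners of Tlr2, were higher (1.63 and 1.39). Ifngr1, the ligand-binding chain of the IFN-γ receptor, was lower at 6.46 and 6.28 against 8.60 and 8.43 (log2 fold change −2.15, SE 0.11, adjusted p = 0.000219), and the signalling chain Ifngr2 was higher at 8.85 and 8.95 against 8.37 and 8.42 (log2 fold change 0.50, SE 0.08, adjusted p = 0.00550). Of the interferon and cytokine receptors and their JAK kinases, 13 of the 25 genes tested were called higher and 4 lower, with a median log2 fold change of 0.50. Il18r1, a chain of the IL-18 receptor, was undetected on both iNOS-/- M1 arrays and at least 5.85-fold lower (adjusted p = 0.000132), and Jak2 was higher (1.39).

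Sensors and caspases of the inflammasome and of cell death were mixed as well. Of these, 8 of the 16 genes tested were called higher and 3 lower, with a median log2 fold change of 0.87. Nod2, a sensor of bacterial cell wall fragments, was undetected on both WT M1 arrays and at least 4.91-fold higher (adjusted p = 0.00750), and Nod1 was higher by 1.73. Casp4, the sensor of LPS in the cytosol also known as caspase-11, was at 11.16 and 11.08 on the iNOS-/- M1 arrays against 9.16 and 9.24 on the WT M1 arrays (log2 fold change 1.92, SE 0.10, adjusted p = 0.000208), and Casp1 at 12.27 and 12.33 against 11.31 and 11.28 (log2 fold change 1.01, SE 0.09, adjusted p = 0.000695). Pycard, the adaptor that joins sensors to caspase-1, went the other way, at 5.18 and 5.61 against 7.39 and 7.35 (log2 fold change −1.98, SE 0.16, adjusted p = 0.000593). Nlrp3 was at 5.69 and 6.20 against 5.14 and 5.30 and did not pass the test (log2 fold change 0.73, SE 0.30, adjusted p = 0.0986, not called).

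Interferon-stimulated genes were the family with the highest share of calls in a single direction among those of 20 or more genes. Of the antiviral genes, 24 of the 26 genes tested were called higher, with a median log2 fold change of 1.72. Isg20, an exonuclease of viral RNA, was at 7.54 and 7.81 on the iNOS-/- M1 arrays against 3.61 and 3.34 on the WT M1 arrays (log2 fold change 4.20, SE 0.71, adjusted p = 0.00607). The cytosolic RNA sensor Ifih1 was at 8.30 and 7.83 against 5.86 and 5.52 (log2 fold change 2.37, SE 0.30, adjusted p = 0.00230), the oligoadenylate synthetase-like gene Oasl1 at 12.38 and 12.35 against 9.997 and 10.09 (log2 fold change 2.32, SE 0.30, adjusted p = 0.00243), and Usp18, which strips ISG15 from proteins, at 13.26 and 13.35 against 11.09 and 11.10 (log2 fold change 2.21, SE 0.08, adjusted p = 0.000122). In all 26 genes both iNOS-/- M1 arrays lay above both WT M1 arrays, against 3908 of the 10163 genes tested. Of the interferon-inducible GTPases, which act against vacuolar pathogens, 8 of the 10 genes tested were called higher, with a median log2 fold change of 1.45. Gbp5 was at 11.48 and 11.51 against 9.35 and 9.39 (log2 fold change 2.13, SE 0.11, adjusted p = 0.000220), Gbp2 at 14.27 and 14.51 against 13.20 and 13.38 (log2 fold change 1.10, SE 0.12, adjusted p = 0.00143), Igtp at 10.84 and 10.65 against 9.11 and 9.35 (log2 fold change 1.51, SE 0.12, adjusted p = 0.000602) and Irgm1 at 13.35 and 13.39 against 12.30 and 12.37 (log2 fold change 1.03, SE 0.10, adjusted p = 0.000866). Before activation the median difference between genotypes was 0.42 for the antiviral genes and 0.77 for the GTPases.

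Because the members of these families moved together, their promoters were searched for the interferon-stimulated response element, spelled here as GAAANNGAA, on both strands. The 250 bases before each RefSeq start were used, from sequences credited to RefSeq on build GRCm38.p6. Among the GTPases, 9 of the 10 genes tested had a promoter there, and 8 of their 10 promoters (80.0%) held the element. Among the antiviral genes, 18 of 26 had a promoter and 9 of 21 promoters (42.9%) held it. Over all 32851 RefSeq promoters it occurred in 7.13%. Matches may overlap, and a match is a description of letters, not a shown binding site. The following promoters of genes named in this section, chosen among those with a match, are shown with each match in capitals. The window is chr3:142620413-142620662, plus strand for Gbp2, chr3:142559794-142560043, plus strand for Gbp3, chr11:58199306-58199555, plus strand for Igtp, chr11:48871421-48871670, minus strand for Irgm1 and chr19:34583279-34583528, plus strand for Ifit3.
Gbp2: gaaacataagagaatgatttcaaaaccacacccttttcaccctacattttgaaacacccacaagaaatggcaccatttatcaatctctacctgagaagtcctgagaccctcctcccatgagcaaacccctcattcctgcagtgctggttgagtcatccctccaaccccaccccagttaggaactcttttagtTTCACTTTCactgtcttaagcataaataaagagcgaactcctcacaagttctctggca
Gbp3: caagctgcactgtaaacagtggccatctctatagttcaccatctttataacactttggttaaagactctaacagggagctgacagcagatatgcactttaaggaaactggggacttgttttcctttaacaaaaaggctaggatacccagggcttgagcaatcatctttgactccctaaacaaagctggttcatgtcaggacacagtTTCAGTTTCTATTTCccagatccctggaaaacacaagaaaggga
Igtp: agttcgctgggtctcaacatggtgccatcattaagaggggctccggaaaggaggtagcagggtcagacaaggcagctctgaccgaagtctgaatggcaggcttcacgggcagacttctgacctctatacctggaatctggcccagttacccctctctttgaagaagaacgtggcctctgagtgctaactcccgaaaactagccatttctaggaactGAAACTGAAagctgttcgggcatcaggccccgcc
Irgm1: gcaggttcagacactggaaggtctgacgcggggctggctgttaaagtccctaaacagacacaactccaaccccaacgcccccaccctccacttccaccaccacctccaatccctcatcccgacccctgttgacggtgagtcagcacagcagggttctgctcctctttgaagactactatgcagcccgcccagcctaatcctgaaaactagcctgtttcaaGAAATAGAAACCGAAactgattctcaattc
Ifit3: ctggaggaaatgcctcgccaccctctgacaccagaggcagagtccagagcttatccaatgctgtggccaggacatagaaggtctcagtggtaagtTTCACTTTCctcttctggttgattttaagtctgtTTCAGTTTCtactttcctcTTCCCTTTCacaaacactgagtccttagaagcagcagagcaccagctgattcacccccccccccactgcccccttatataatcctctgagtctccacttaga
In the 4 GTPase promoters shown, the match began 30 to 58 bases before the start, counting the match farthest from it. Among GTPase promoters not shown, matches began at −164 in Gbp5, −77 in Tgtp, −64 in Iigp2 and −52 in Gbp6, counted from the start. Ifi47 and another Gbp3 promoter held none. Of the antiviral genes named above, Ifih1 held a match at −112, and the promoters of Isg20 and Oasl1 held none. In Ifit3, whose log2 fold change was 1.57, 3 matches began between 155 and 102 bases before it. For Gbp3 the log2 fold change was 1.40.

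The machinery of antigen presentation was higher on the class I side. Of the genes of class I presentation and the immunoproteasome, the proteasome form induced by IFN-γ, 14 of the 19 genes tested were called higher and 1 lower, with a median log2 fold change of 0.86. The immunoproteasome subunit Psmb9 was at 11.89 and 11.67 on the iNOS-/- M1 arrays against 10.14 and 10.27 on the WT M1 arrays (log2 fold change 1.58, SE 0.15, adjusted p = 0.000979), its activator Psme1 at 12.22 and 12.41 against 10.80 and 10.77 (log2 fold change 1.53, SE 0.10, adjusted p = 0.000316) and the peptide transporter Tap2 at 11.64 and 11.72 against 10.15 and 10.21 (log2 fold change 1.50, SE 0.08, adjusted p = 0.000257). The constitutive proteasome was higher as well, since 23 of the 30 genes tested were called higher, with a median log2 fold change of 0.60. Psma5 was at 13.15 and 12.84 against 11.84 and 11.84 (log2 fold change 1.16, SE 0.12, adjusted p = 0.00116). Under quantile normalization the median of these subunits was 0.28, with 11 called higher.

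Class II genes differed less. Of 13 tested, 7 were called higher and 2 lower, with a median of 0.52, and under quantile normalization and neqc the median was 0.12 with 3 called higher and 3 lower. Ciita, the master activator of class II genes, was at 10.08 and 10.22 on the iNOS-/- M1 arrays against 9.38 and 9.32 on the WT M1 arrays (log2 fold change 0.80, SE 0.11, adjusted p = 0.00266), and H2-Eb1, a class II β chain, at 13.99 and 13.97 against 13.37 and 13.52 (log2 fold change 0.54, SE 0.09, adjusted p = 0.00641), though H2-Eb1 was not called under quantile normalization or neqc (adjusted p = 0.283 and 0.287). Ligands that costimulate or inhibit T cells showed larger differences, and 12 of the 14 genes tested were called higher and 1 lower, with a median log2 fold change of 1.57. Cd86 was at 11.96 and 11.82 against 9.80 and 9.96 (log2 fold change 2.01, SE 0.10, adjusted p = 0.000208), Cd80 at 10.86 and 10.82 against 8.78 and 8.95 (log2 fold change 1.98, SE 0.10, adjusted p = 0.000223) and Cd40, the receptor for T-cell help, at 14.14 and 14.19 against 12.36 and 12.41 (log2 fold change 1.78, SE 0.08, adjusted p = 0.000160). Cd274, the inhibitory ligand PD-L1, was higher too, at 12.97 and 12.98 against 11.97 and 12.03 (log2 fold change 0.97, SE 0.09, adjusted p = 0.000764), so genes of both activating and inhibitory ligands rose.

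**Figure D3:**
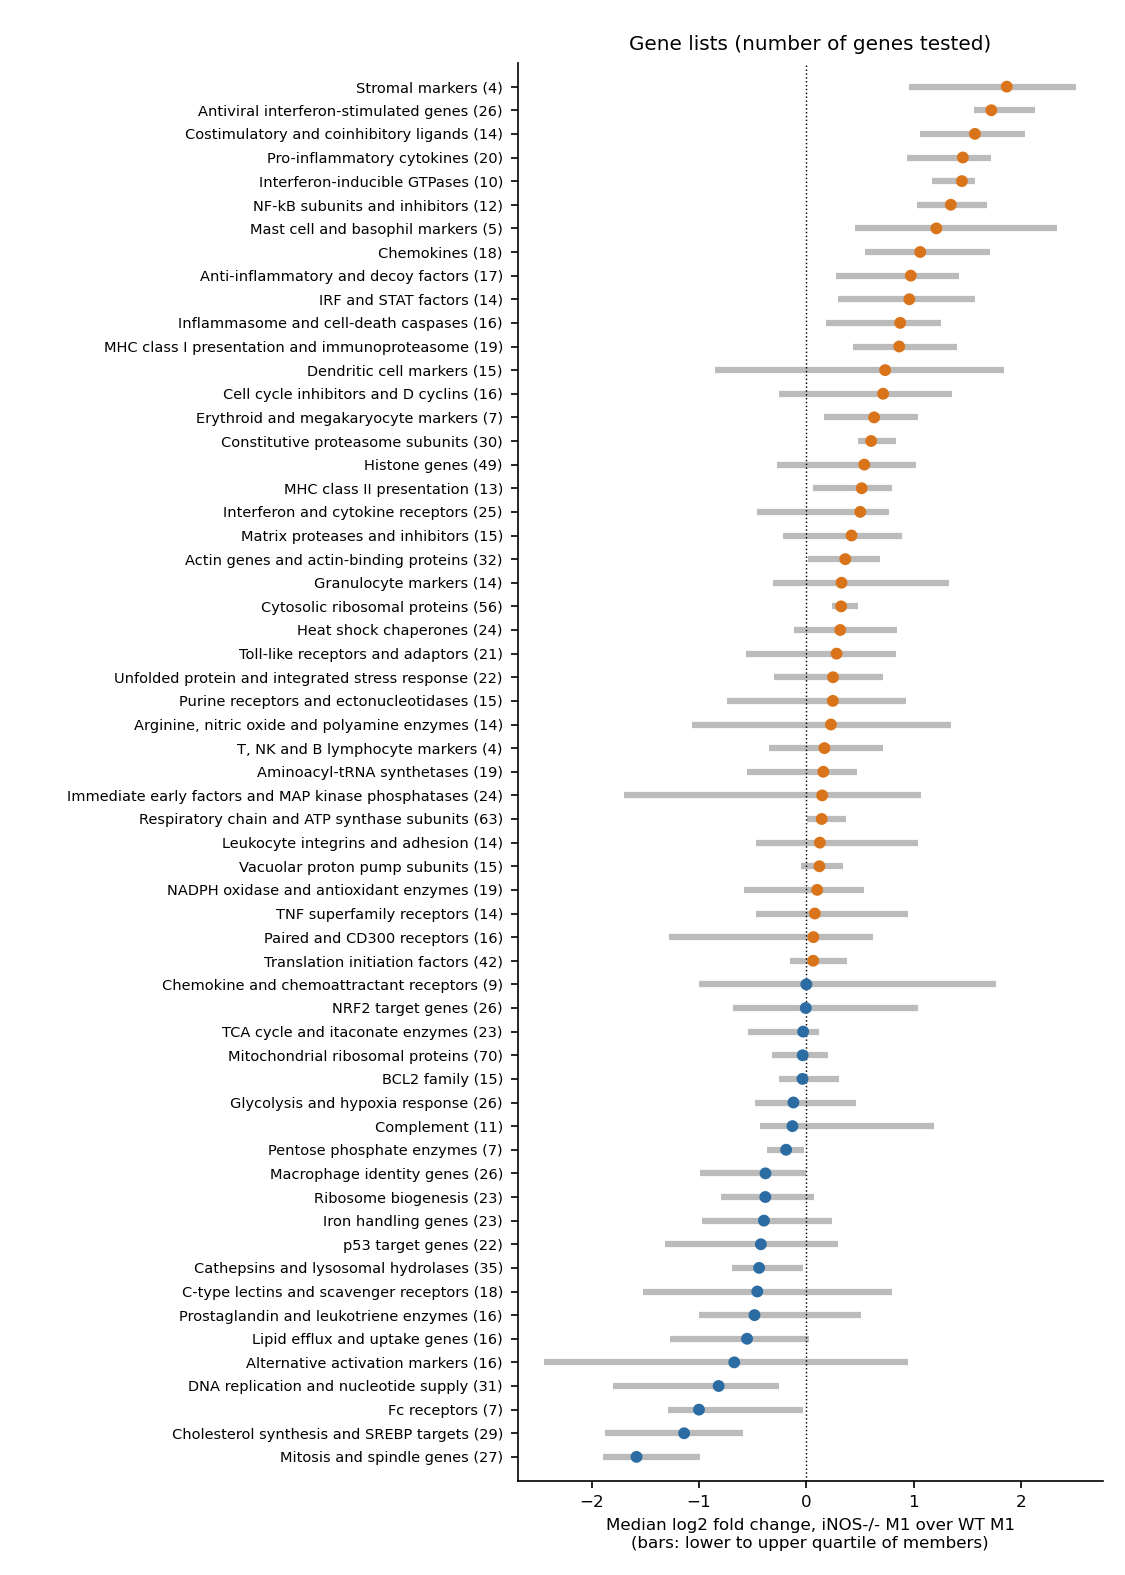
Median log2 fold change (iNOS-/- M1 over WT M1, x axis) of each of the 59 gene lists, with bars from the lower to the upper quartile of the members, and the number of genes tested beside each name. The dotted line marks 0, close to the median of all genes tested. Stromal markers (1.87, 4 genes), interferon-stimulated genes (1.72) and costimulatory ligands (1.57) lie far to the right, and mitosis genes (−1.58) and cholesterol synthesis genes (−1.14) far to the left.

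Genes that mark macrophages as such tended the other way. Of the macrophage identity genes, 13 of the 26 genes tested were called lower and 4 higher, with a median log2 fold change of −0.38. Csf1r, the receptor for M-CSF, was at 10.31 and 10.01 on the iNOS-/- M1 arrays against 11.40 and 11.43 on the WT M1 arrays (log2 fold change −1.26, SE 0.12, adjusted p = 0.00102), and Cd68, a lysosomal glycoprotein used as a pan-macrophage marker, at 10.22 and 10.37 against 11.21 and 11.16 (log2 fold change −0.89, SE 0.09, adjusted p = 0.00120). Cebpa, a transcription factor of the myeloid lineage, was undetected on both iNOS-/- M1 arrays and at least 5.99-fold lower (adjusted p = 0.000597), and Cd200r1, an inhibitory receptor, was at least 8.92-fold lower (adjusted p = 0.00175). The member with the largest increase was Cd14 (1.48), given above with the Toll-like receptors. Under quantile normalization and neqc, 20 of the 26 genes were called lower. The summed level of the whole list overlapped between the groups, at 110140 to 114942 in WT M1 and 108918 to 115986 in iNOS-/- M1 (sum of scaled intensities). Before activation the sum did not overlap, at 116692 to 116694 in WT and 82009 to 82517 in iNOS-/- cells. Fewer cells of a type and less RNA per cell cannot be told apart in these bulk samples.

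Markers of alternative activation, the state driven by IL-4, fell in part. Of these, 8 of the 16 genes tested were called lower and 4 higher, with a median log2 fold change of −0.67. The median came to −0.25 under neqc, with 6 called higher and 8 lower, and to −0.13 with a floor of 16. Pparg, a nuclear receptor of lipid metabolism, was at 3.51 and 3.91 on the iNOS-/- M1 arrays against 7.64 and 7.41 on the WT M1 arrays (log2 fold change −3.81, SE 0.18, adjusted p = 0.000195), Klf4 at 3.58 and 4.49 against 7.75 and 7.80 (log2 fold change −3.74, SE 0.30, adjusted p = 0.000573) and Egr2 at 8.55 and 8.42 against 10.85 and 10.94 (log2 fold change −2.41, SE 0.09, adjusted p = 0.000126). Retnla, a secreted effector of this state, was at 5.92 and 5.83 against 8.41 and 8.43 (log2 fold change −2.54, SE 0.16, adjusted p = 0.000323), and Arg1, which competes with iNOS for arginine, at 5.14 and 4.95 against 6.78 and 6.67 (log2 fold change −1.68, SE 0.19, adjusted p = 0.00152). Among the members called higher were Tgm2 (1.24), Chi3l3 (0.85) and Ccl17 (0.82). Klf2 and Egr1, related zinc-finger factors, fell as well (−2.82 and −2.83), and so did Fos and Jun (−2.91 and −1.46). The wider list of immediate early factors and MAP kinase phosphatases was split, with 9 higher and 8 lower of 24.

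Surface receptors changed member by member. Of the Fc receptors, 4 of the 7 genes tested were called lower and 2 higher, with a median log2 fold change of −1.001. Fcgr4 was higher at 10.49 and 10.58 on the iNOS-/- M1 arrays against 9.50 and 9.56 on the WT M1 arrays (log2 fold change 1.01, SE 0.11, adjusted p = 0.00126), whereas Fcgr3 at 9.95 and 10.23 against 11.38 and 11.26 (log2 fold change −1.23, SE 0.12, adjusted p = 0.00106) and Fcgrt, the receptor that recycles IgG, at 7.39 and 7.34 against 8.79 and 8.96 (log2 fold change −1.51, SE 0.10, adjusted p = 0.000341) were lower. Among C-type lectins and scavenger receptors, 8 of the 18 genes tested were called lower and 6 higher, with a median log2 fold change of −0.46. Marco, a scavenger receptor of bacteria, was at 7.53 and 7.44 against 5.11 and 4.99 (log2 fold change 2.43, SE 0.14, adjusted p = 0.000258), and Clec4e, which binds mycobacterial glycolipid, at 11.35 and 11.46 against 9.62 and 9.77 (log2 fold change 1.71, SE 0.10, adjusted p = 0.000261). Scarb1, the HDL receptor, was undetected on both iNOS-/- M1 arrays and at least 2.35-fold lower (adjusted p = 0.000153), a call lost with a floor of 16 (adjusted p = 0.372). In the CD300 family, whose members tune myeloid activation, Cd300lb was undetected there and at least 8.85-fold lower (adjusted p = 0.000101), and Cd300lf was at 4.07 and 3.56 against 7.11 and 6.70 (log2 fold change −3.09, SE 0.22, adjusted p = 0.000407). Ccr7, a chemokine receptor that guides cells to lymph nodes, was higher at 10.97 and 10.84 against 8.04 and 7.77 (log2 fold change 2.997, SE 0.17, adjusted p = 0.000269).

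Of 11 complement genes tested, 3 were called higher and 3 lower, close to the shares over all genes, with a median of −0.13. C3, the central complement component, was at 12.36 and 12.34 on the iNOS-/- M1 arrays against 11.15 and 11.16 on the WT M1 arrays (log2 fold change 1.19, SE 0.09, adjusted p = 0.000506), and Cfb, the factor B of the alternative pathway, was higher too (1.54). The C1q chains C1qa and C1qc were lower (−0.77 and −0.45). Mmp13, a collagenase, was higher (2.02), and Timp2, an inhibitor of such enzymes, was at 4.92 and 5.23 against 7.79 and 7.82 (log2 fold change −2.74, SE 0.12, adjusted p = 0.000159). Of the matrix proteases and inhibitors, 8 of the 15 genes tested were called higher and 2 lower, with a median log2 fold change of 0.42.

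Genes of sterol and lipid synthesis were lower in iNOS-/- M1 cells. Of the cholesterol synthesis genes and other SREBP targets, which cells switch on when sterols run low, 22 of the 29 genes tested were called lower and 4 higher, with a median log2 fold change of −1.14. The median stayed between −1.24 and −0.97 under all alternatives run. Acat2, at the head of the pathway, was at 4.88 and 4.95 on the iNOS-/- M1 arrays against 7.98 and 7.94 on the WT M1 arrays (log2 fold change −3.04, SE 0.08, adjusted p = 0.000101), and Mvd, which makes isopentenyl diphosphate, at 6.28 and 6.33 against 8.68 and 8.78 (log2 fold change −2.42, SE 0.09, adjusted p = 0.000130). Sqle, the epoxidase of squalene, was at 9.30 and 9.45 against 10.58 and 10.60 (log2 fold change −1.21, SE 0.09, adjusted p = 0.000493), and Lss, which folds it into lanosterol, at 5.67 and 5.83 against 7.86 and 7.46 (log2 fold change −1.92, SE 0.16, adjusted p = 0.000602). Dhcr7, a last step to cholesterol, was undetected on both iNOS-/- M1 arrays and at least 12.3-fold lower (adjusted p = 0.000295). Both groups were free of overlap in these genes. Scd2, a fatty acid desaturase, was at 3.09 and 2.09 against 6.71 and 6.70 (log2 fold change −4.12, SE 0.41, adjusted p = 0.00102). The exceptions within the pathway were Pmvk, at 8.38 and 8.34 against 6.73 and 6.38 (log2 fold change 1.80, SE 0.17, adjusted p = 0.000899), and Idi1, at 7.41 and 7.44 against 6.18 and 6.45 (log2 fold change 1.11, SE 0.25, adjusted p = 0.0163), which were higher. The call of Idi1 was lost without the first WT M1 array or either iNOS-/- M1 array (adjusted p = 0.0622 to 0.0786). Insig2, which holds SREBP back in the endoplasmic reticulum, was also higher (0.85). The letters TCACNCCAC, a core of the sterol response element, were found in none of the 29 promoters of the 21 genes with one (1.05% of all promoters hold them), which says only that these letters are not in these windows. Hmgcs1, Mvk and Fdft1 did not pass the detection filter or have no probe, and were not tested.

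**Figure D4:**
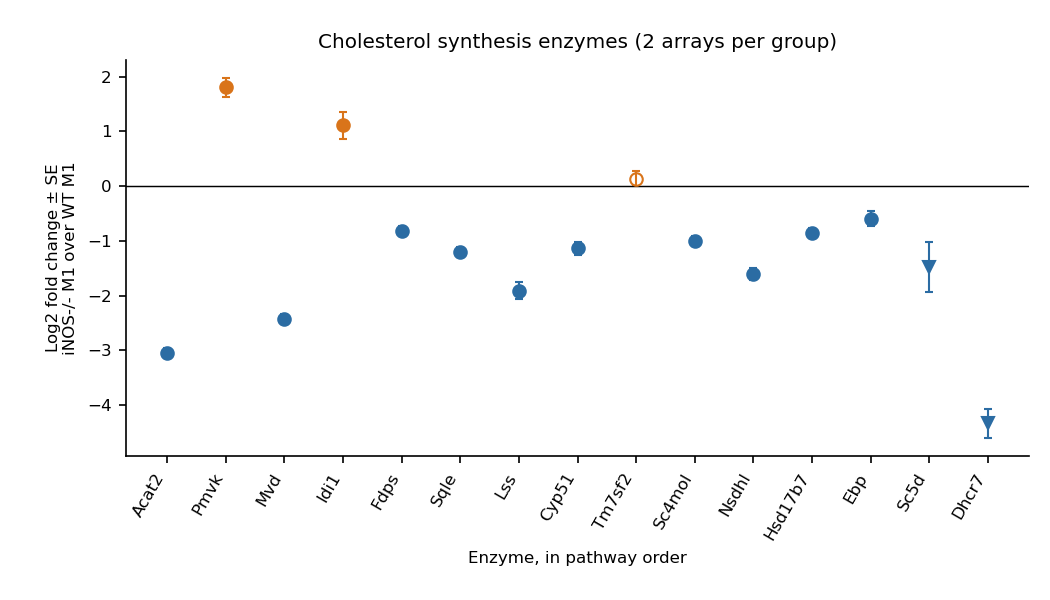
Log2 fold change (iNOS-/- M1 over WT M1, y axis) with standard error for enzymes of cholesterol synthesis that were tested, ordered along the pathway from left to right, filled where called and open where not, with triangles for enzymes undetected on both iNOS-/- M1 arrays, whose value is not a bound. Pmvk and Idi1 lie above 0, Tm7sf2 close to it, and the other plotted enzymes detected in both groups below it, from −0.59 for Ebp to −3.04 for Acat2.

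Genes of lipid efflux and uptake were lower as well as the synthesis genes. Of the efflux and uptake genes, 11 of the 16 genes tested were called lower and 2 higher, with a median log2 fold change of −0.55. Before activation their median was −0.85, with 12 called lower and 1 higher. Apoe, which carries lipids out of macrophages, was at 6.62 and 6.79 on the iNOS-/- M1 arrays against 8.82 and 8.96 on the WT M1 arrays (log2 fold change −2.19, SE 0.10, adjusted p = 0.000183), and the sterol pump Abcg1 at 6.05 and 5.96 against 7.74 and 7.83 (log2 fold change −1.78, SE 0.11, adjusted p = 0.000279). Ch25h, whose product 25-hydroxycholesterol restrains SREBP and is induced by interferon, went the other way, at 11.76 and 11.73 against 9.32 and 9.41 (log2 fold change 2.38, SE 0.11, adjusted p = 0.000179). Of the enzymes of prostaglandin and leukotriene synthesis, 7 of the 16 genes tested were called lower and 3 higher, with a median log2 fold change of −0.48, which came to −0.21 under neqc. Ptgs2, the inducible cyclooxygenase, was at 9.14 and 8.96 against 6.36 and 5.79 (log2 fold change 2.97, SE 0.23, adjusted p = 0.000539), and Ptgs1, the constitutive one, at 5.79 and 5.68 against 7.77 and 7.51 (log2 fold change −1.90, SE 0.12, adjusted p = 0.000311). The leukotriene genes Alox5 (−1.61), Alox5ap (−0.79) and Ltc4s (−0.96) were all called lower.

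Genes around arginine and nitric oxide did not move as a block. Of the arginine, nitric oxide and polyamine enzymes, 6 of the 14 genes tested were called higher and 6 lower, with a median log2 fold change of 0.23. The arginine transporter Slc7a2 was at 11.66 and 11.70 on the iNOS-/- M1 arrays against 9.82 and 9.91 on the WT M1 arrays (log2 fold change 1.82, SE 0.09, adjusted p = 0.000195). Gch1, the first enzyme of the tetrahydrobiopterin cofactor of iNOS, was at 12.93 and 12.98 against 11.20 and 11.28 (log2 fold change 1.71, SE 0.08, adjusted p = 0.000183), while the later enzymes of that cofactor, Pts and Spr, were lower (−0.58 and −1.23). Ass1, which rebuilds arginine from citrulline, was at 11.45 and 11.29 against 10.27 and 10.38 (log2 fold change 1.04, SE 0.10, adjusted p = 0.000844), and Arg2 was higher as well (1.44). Srm, which makes spermidine, was at 5.34 and 5.31 against 7.57 and 7.56 (log2 fold change −2.24, SE 0.18, adjusted p = 0.000538), although Odc1, the first enzyme of polyamine synthesis, was higher (0.85).

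Genes of central carbon metabolism were called in both directions. Of 26 genes of glycolysis and the hypoxia response, 7 were called higher and 7 lower, with a median of −0.12, shares near those over all genes, and under neqc 7 were called higher and 11 lower. Pfkp, an isoform of phosphofructokinase, was at 11.65 and 11.63 on the iNOS-/- M1 arrays against 10.76 and 10.71 on the WT M1 arrays (log2 fold change 0.90, SE 0.09, adjusted p = 0.00121), and Pfkfb4, which sets the level of its activator, at 7.38 and 7.34 against 8.79 and 9.02 (log2 fold change −1.55, SE 0.11, adjusted p = 0.000376), so the same step held members in both directions. Of 23 genes of the TCA cycle, 2 were called higher and 7 lower, with a median of −0.03, and under neqc 1 was called higher and 12 lower. The largest difference there was Idh1, the cytosolic isocitrate dehydrogenase, at 7.56 and 7.48 against 9.97 and 10.13 (log2 fold change −2.53, SE 0.12, adjusted p = 0.000183). Aco1, the cytosolic aconitase that doubles as an iron sensor, was lower (−1.54). Of 63 subunits of the respiratory chain and ATP synthase, 18 were called higher and 6 lower, and the median of 0.14 turned to −0.23 under quantile normalization and −0.22 under neqc, with 5 and 7 called higher and 18 and 24 lower. The sign of this median thus rested on the scaling.

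Antioxidant and iron genes were split as well. Of the NRF2 targets, 9 were called higher and 7 lower of 26. Among them the cystine transporter Slc7a11 was at 11.15 and 11.13 on the iNOS-/- M1 arrays against 9.73 and 9.67 on the WT M1 arrays (log2 fold change 1.45, SE 0.09, adjusted p = 0.000300), and Txnrd1, which reduces thioredoxin, was higher (1.40), while Nqo1, a quinone reductase, was lower at 5.98 and 5.94 against 6.60 and 6.76 (log2 fold change −0.72, SE 0.09, adjusted p = 0.00228). Sod2, the mitochondrial superoxide dismutase, was at 13.62 and 13.71 against 12.66 and 12.45 (log2 fold change 1.11, SE 0.11, adjusted p = 0.000912). Txnip, which binds thioredoxin, was lower (−1.32). Lcn2, which binds bacterial siderophores, was at 11.55 and 11.68 against 9.08 and 9.04 (log2 fold change 2.56, SE 0.11, adjusted p = 0.000149), and Tfrc, the transferrin receptor, at 6.61 and 6.76 against 8.36 and 8.39 (log2 fold change −1.69, SE 0.14, adjusted p = 0.000602). Hmox1, which breaks down haem, was at 7.81 and 8.19 against 8.48 and 8.31 and did not pass the test (log2 fold change −0.40, SE 0.21, adjusted p = 0.181, not called).

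The genes of cell division were lower in iNOS-/- M1 cells. Of the mitosis and spindle genes, 22 of the 27 genes tested were called lower and 2 higher, with a median log2 fold change of −1.58. Plk1, a kinase of mitotic entry, was at 6.48 and 6.61 on the iNOS-/- M1 arrays against 8.09 and 8.22 on the WT M1 arrays (log2 fold change −1.61, SE 0.11, adjusted p = 0.000353), Birc5, which encodes survivin of the chromosomal passenger complex, at 7.46 and 7.31 against 9.11 and 9.15 (log2 fold change −1.74, SE 0.09, adjusted p = 0.000249), and Anln, an anillin of the dividing furrow, at 5.99 and 5.49 against 8.31 and 8.54 (log2 fold change −2.69, SE 0.19, adjusted p = 0.000392). Before activation the same genes lay the other way, with 24 of 27 called higher in iNOS-/- cells, against a background of 17.0% of genes called higher and 17.0% called lower between the unstimulated groups. For Plk1 the unstimulated levels were 6.23 and 6.39 on the WT unstimulated arrays and 8.64 and 8.57 on the iNOS-/- unstimulated arrays. Pttg1, which encodes securin, was an exception, higher after activation at 5.34 and 5.38 against 2.35 and 3.03 (log2 fold change 2.67, SE 0.25, adjusted p = 0.000903). Of the genes of DNA replication and nucleotide supply, 21 of the 31 genes tested were called lower and 1 higher, with a median log2 fold change of −0.82. The helicase subunit Mcm2 was at 4.55 and 4.78 against 6.89 and 6.83 (log2 fold change −2.19, SE 0.13, adjusted p = 0.000281), and the factors E2f1 and E2f2, which drive entry into S phase, were lower (−2.25 and −2.86). The cyclin-dependent kinase inhibitor Cdkn1a was higher, at 13.19 and 13.11 against 11.55 and 11.53 (log2 fold change 1.61, SE 0.08, adjusted p = 0.000198), and so was Ccnd2, a D cyclin, at 12.85 and 12.85 against 9.97 and 10.00 (log2 fold change 2.87, SE 0.10, adjusted p = 0.000116).

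Promoters of the mitosis genes were searched for the CCAAT box, spelled CCAAT, and the cell cycle homology region, spelled TTTGAA, on both strands. Of 27 genes tested, 23 had a promoter. The CCAAT box was in 18 of 24 promoters (75.0%), against 33.8% of all promoters, and TTTGAA in 7 (29.2%), against 15.99%. All 7 held both, against 5.55% of all promoters. Neither motif was particular to this family. The CCAAT box was in 62.1% of the cholesterol gene promoters and 64.7% of those of class I presentation, and TTTGAA in 5 of the 10 GTPase promoters. The windows shown are chr4:118437344-118437593, minus strand for Cdc20, chr7:80294226-80294475, plus strand for Prc1 and chr11:99024190-99024439, minus strand for Top2a, with matches of either motif in capitals.
Cdc20: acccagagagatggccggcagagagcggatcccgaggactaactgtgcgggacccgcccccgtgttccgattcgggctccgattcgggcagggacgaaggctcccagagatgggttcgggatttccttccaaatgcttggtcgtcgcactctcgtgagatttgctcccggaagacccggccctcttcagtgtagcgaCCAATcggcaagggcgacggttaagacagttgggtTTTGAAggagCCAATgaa
Prc1: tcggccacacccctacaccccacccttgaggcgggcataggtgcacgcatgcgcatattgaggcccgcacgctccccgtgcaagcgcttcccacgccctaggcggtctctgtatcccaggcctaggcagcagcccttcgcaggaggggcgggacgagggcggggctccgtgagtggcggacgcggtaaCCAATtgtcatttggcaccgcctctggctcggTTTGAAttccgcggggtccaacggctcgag
Top2a: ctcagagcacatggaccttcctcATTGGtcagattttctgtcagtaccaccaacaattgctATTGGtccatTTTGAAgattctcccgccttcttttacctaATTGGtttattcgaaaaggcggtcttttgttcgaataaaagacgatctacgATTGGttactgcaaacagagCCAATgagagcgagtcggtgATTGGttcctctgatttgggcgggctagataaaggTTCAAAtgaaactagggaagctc
Cdc20 activates the ubiquitin ligase that ends metaphase, Prc1 bundles the central spindle, and Top2a untangles DNA. Their log2 fold changes after activation were −1.58, −1.24 and −1.06, all called. Before activation they were 1.92, 1.36 and 2.13, also called.

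Targets of p53 were more often lower than higher, although Cdkn1a belongs to them too. Of these, 11 of the 22 genes tested were called lower and 4 higher, with a median log2 fold change of −0.42. Sesn1, a sestrin that restrains growth signalling, was at 4.84 and 4.68 on the iNOS-/- M1 arrays against 7.95 and 7.62 on the WT M1 arrays (log2 fold change −3.02, SE 0.17, adjusted p = 0.000263), and Phlda3, which restrains AKT, at 3.65 and 3.40 against 6.17 and 6.23 (log2 fold change −2.68, SE 0.13, adjusted p = 0.000208). Trp53, which encodes p53, was itself at 7.41 and 7.25 against 8.52 and 8.45 (log2 fold change −1.15, SE 0.10, adjusted p = 0.000679). Mdm2, which marks p53 for destruction, was higher at 11.82 and 11.72 against 10.22 and 10.34 (log2 fold change 1.49, SE 0.12, adjusted p = 0.000538). The BCL2 family, which sets the threshold for cell death, had 2 genes called higher and 3 lower of 15 tested, a smaller share than over all genes, with a median of −0.04. The survival genes Bcl2a1d (1.49) and Bcl2l1 (1.17) were higher, and Bmf, a death-promoting member, was lower at 3.44 and 2.54 against 5.70 and 5.87 (log2 fold change −2.80, SE 0.30, adjusted p = 0.00130).

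The machinery of protein synthesis was less clear. Of the cytosolic ribosomal proteins, 35 of the 56 genes tested were called higher and 2 lower, with a median log2 fold change of 0.32. That median was −0.09 under quantile normalization and −0.09 under neqc, with 6 and 8 called higher and 7 and 9 lower, so its sign and its count rested on the scaling. Genes of ribosome biogenesis were lower more often than higher, since 10 of the 23 genes tested were called lower and 2 higher, with a median log2 fold change of −0.38. Rrp12, an exporter of pre-ribosomes, was at 6.29 and 6.28 on the iNOS-/- M1 arrays against 7.37 and 7.55 on the WT M1 arrays (log2 fold change −1.17, SE 0.11, adjusted p = 0.000947). Wars, the tryptophanyl-tRNA synthetase that IFN-γ induces, was higher at 10.25 and 10.20 against 8.71 and 8.77 (log2 fold change 1.48, SE 0.11, adjusted p = 0.000468). Of the mitochondrial ribosomal proteins, 12 were called higher and 15 lower of 70. Of the cathepsins and lysosomal hydrolases, 18 of the 35 genes tested were called lower and 3 higher, with a median log2 fold change of −0.44, and 10 were called lower when only the 4 M1 arrays were fitted. The protease Tpp1 was at 7.08 and 7.19 against 8.49 and 8.60 (log2 fold change −1.41, SE 0.09, adjusted p = 0.000306), and Gusb, the lysosomal glucuronidase, at 11.26 and 11.21 against 11.99 and 12.13 (log2 fold change −0.82, SE 0.09, adjusted p = 0.00159). Mitf, a factor that switches on lysosomal genes, was higher at 6.89 and 7.18 against 5.49 and 5.30 (log2 fold change 1.64, SE 0.15, adjusted p = 0.000888).

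Markers of other cell types differed in summed level between the groups too, and their part in the results above was not tested. Of the dendritic cell markers, 6 of the 15 genes tested were called higher and 4 lower, with a median log2 fold change of 0.73, and their summed level was 7190 to 7382 in WT M1 and 21557 to 22517 in iNOS-/- M1. Before activation it was 605 to 644 in WT and 5681 to 5814 in iNOS-/- cells. Of the 15 genes, 12 were then called higher and 0 lower, with a median of 3.55. Most of the sum in both M1 groups came from Il4i1, an amino acid oxidase. Its level was 13.71 and 13.84 on the iNOS-/- M1 arrays against 12.13 and 12.17 on the WT M1 arrays (log2 fold change 1.62, SE 0.09, adjusted p = 0.000257). Zbtb46, a defining factor of conventional dendritic cells, was at 6.04 and 6.32 against 5.53 and 5.36 (log2 fold change 0.73, SE 0.23, adjusted p = 0.0474), a call lost when any 1 of the 4 M1 arrays or either iNOS-/- unstimulated array was left out, with the replicate block and with no detection filter (adjusted p = 0.0648 to 0.176). Itgax, which encodes CD11c, was at 7.68 and 7.45 against 7.87 and 8.07 (log2 fold change −0.41, SE 0.16, adjusted p = 0.0814, not called). Clec9a was near the background in both groups, Cd209a was undetected on both iNOS-/- M1 arrays, and Flt3 and Xcr1 were not detected on 2 arrays or more. Of the granulocyte markers, 4 of the 14 genes tested were called higher and 3 lower, close to the shares over all genes, with a median log2 fold change of 0.33. Their summed level was 2900 to 2994 in WT M1 and 7510 to 7952 in iNOS-/- M1. Most of the level in iNOS-/- M1 cells came from Lcn2, given above with the iron genes, and S100a8. S100a8, a calcium-binding protein of granulocytes and activated macrophages, was at 11.50 and 11.54 against 10.04 and 10.22 (log2 fold change 1.39, SE 0.10, adjusted p = 0.000386), S100a9 was higher as well (2.39), and the neutrophil granule genes Mpo, Prtn3 and Ctsg were not detected on 2 arrays or more. Of the mast cell and basophil markers, 5 were tested. Before activation 4 were called higher, with a summed level of 47.5 to 50.3 in WT and 408 to 414 in iNOS-/- cells. After activation 3 were called higher, with a summed level of 498 to 541 in WT M1 and 2186 to 2280 in iNOS-/- M1. Most of that level came from Hdc, the histamine-forming enzyme, at 10.87 and 10.79 against 8.55 and 8.45 (log2 fold change 2.33, SE 0.38, adjusted p = 0.00562), while 8 mast cell and basophil genes such as Cma1 and Ms4a2 were not detected on 2 arrays or more. Of 21 T, NK and B lymphocyte markers, 4 were tested and Lck alone was called, at 7.06 and 7.19 against 5.32 and 4.99 (log2 fold change 1.97, SE 0.43, adjusted p = 0.0143). That call was lost without the second WT M1 array or either iNOS-/- M1 array (adjusted p = 0.0532 to 0.0704). Among the 17 others was Cd3e. The summed level was 155 to 189 in WT M1 and 299 to 310 in iNOS-/- M1. The erythroid and megakaryocyte markers summed to 654 to 719 in WT M1 and 1251 to 1290 in iNOS-/- M1, with 3 of 7 called higher and 1 lower, and the stromal markers to 237 to 238 and 663 to 841, with 2 of 4 called higher.

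The genotypes also differed before activation, and the size of the difference depended on activation for many genes. The genotype difference after activation was set against that before it by an interaction term, and 4429 genes were called, which is 43.6% of the genes tested. No arrays are shared between both differences. Of the probes called higher in iNOS-/- M1 cells, 23.6% were also called higher and 18.3% called lower between the unstimulated groups. Of those called lower, 25.3% were also lower and 19.5% higher there. Over all 13868 probes, 2206 were called higher and 2241 lower between the unstimulated groups, and over all genes 17.0% were called each way. The shares in the opposite direction lay somewhat above this share of genes. Among probes not called after activation, 10.6% were called higher and 10.8% lower between the unstimulated groups. The families differed in how both differences compared. MHC class II genes had a median genotype difference of 1.50 before activation and 0.52 after it, and costimulatory ligands 1.76 and 1.57. Dendritic cell markers were at 3.55 and 0.73. Pro-inflammatory cytokines stood at 0.28 and 1.46, and the constitutive proteasome at 0.03 and 0.60. Cholesterol synthesis genes were at −0.46 and −1.14. A larger difference before activation than after it was also seen in genes of lipid efflux and uptake (−0.85 and −0.55). The same held for cathepsins and lysosomal hydrolases (−0.73 and −0.44) and macrophage identity genes (−0.79 and −0.38). Mitosis and DNA replication genes changed sign, from 1.49 to −1.58 and from 1.15 to −0.82. The plot of both differences sets these families side by side.

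**Figure D5:**
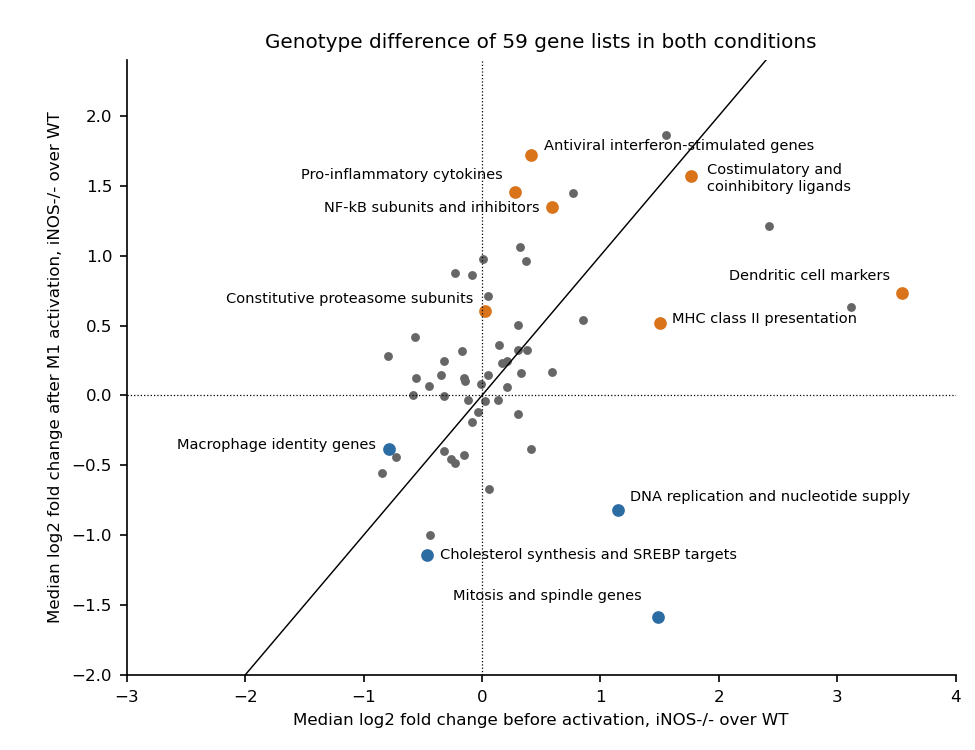
Median log2 fold change of iNOS-/- over WT for each of the 59 gene lists, before activation (x axis) and after M1 activation (y axis), with selected lists named. The solid line marks equal differences, and the dotted lines mark 0. Mitosis genes (1.49 before, −1.58 after) and DNA replication genes (1.15 and −0.82) lie in the lower right, and pro-inflammatory cytokines (0.28 and 1.46) lie high near the vertical dotted line.

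At single genes the same contrast could be seen. Nfe2, among the largest decreases after activation, had an unstimulated difference of 0.02 and an interaction of −3.59 (SE 0.12, adjusted p = 0.000153). For Stat4, in contrast, the unstimulated difference was 4.49 and the interaction of −1.34 (SE 0.56, adjusted p = 0.109) was not called. For Ccl5 the difference went from 0.80 to 1.84, an interaction of 1.05 (SE 0.14, adjusted p = 0.00352).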

How the data were processed

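RNA from 8 bone marrow macrophage samples, 2 each of WT and iNOS-/- cells with and without M1 activation, was hybridised to Illumina mouse bead arrays, named MouseRef-8 in the platform label and MouseWG-8 in the methods. The authors deposited, per the file headers, non-normalized GenomeStudio probe intensities, with no background subtraction stated there, and a detection p-value for each probe and array. From 25.2% to 27.2% of the deposited intensity values on an array lay below 0, which raw intensities do not, so some background had been subtracted. The submitters' processing notes also name limma 3.14.4. All per-sample columns were mapped to labelled samples (0 unmapped).

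Arrays were scaled towards their mean through rank-invariant probes (robust regression without an intercept, with rlm of MASS 7.3.60.0.1, on probes between the 0.5 and 0.9 rank quantile whose ranks differed by under 5%), after the rank-invariant normalization that the methods name. Values were floored at 1 before the log2 transformation. Kept were probes with a detection p under 0.05 on at least 2 of 8 arrays (13868 of 25697). limma 3.58.1 in R 4.3.3 fitted the 4 groups over all 8 arrays, which share one estimate of the spread, with Benjamini-Hochberg adjustment. The methods selected probes by fold change and p, and the threshold here is the adjusted p, with 2-fold calls as an alternative. Where a gene was undetected on both arrays of a group, the fold is a bound: the detected group's mean against the higher, on each array, of the probe's own signal and the lowest signal among detected probes. A list's median uses the fitted values.

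The genes named are Nos2, the 10 largest changes each way among called genes with a mean log2 intensity of at least 8 in the higher group, both of its arrays detected, no overlap between groups and a gene symbol that is not a clone name, the M1 markers of the paper left out, and, for each of 59 lists, called members of large change with members needed as contrast. Members and lists were chosen with earlier results of these data known. On simulated data for the M1 comparison (15681 probes tested, 200 changed), 65 of 100 probes changed 2-fold and 91 of 100 changed 4-fold were called. Beside them 38 unchanged probes were called, all with a mean log2 intensity under 8. Unchanged probes were thus 19.6% of the calls, well above the share that the adjusted p threshold aims at. Since only 200 probes changed, the simulation does not test the scaling where 50.2% of genes are called, as in the M1 comparison. Rank-invariant probes numbered 4773 and 4821 on the iNOS-/- M1 arrays against 7680 and 7480 on the WT M1 arrays. The number of arrays limits the precision. Symbols are those of the array's annotation. Some genes that the lists count are not reported here by name. Promoter sequences are RefSeq's. Motif spellings were chosen with matches in these promoters known. A longer spelling of the interferon-stimulated response element and an NF-kB motif were also searched, were left out for how they had to be written and not for their matches, and are not reported here. The alternatives were neqc, quantile normalization, an intercept in the scaling line, a floor of 16, other detection filters, the 4 M1 arrays alone, an intensity trend, a replicate block, 1 probe a gene, 2-fold calls and leaving out each array.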

Additional observations from a re-analysis of the deposited data

Results flagged for a closer look

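The genotype difference depended on activation for 5815 of 13868 probes by the interaction term, which compares the difference after M1 activation with that before it. Of the 184 genes named, 151 had a called interaction. Most of these genes were chosen for their difference after activation, so this number is not set against that of all genes. In 34 of them the genotype difference was called in both conditions and in opposite directions, and the interactions of these genes, as log2 values, are given here (adjusted p at most 0.00365). Genes of cell division were higher in iNOS-/- cells before activation and lower after it, among them Plk1 (−3.91), Birc5 (−3.92), Anln (−3.98), Cdc20 (−3.50), Prc1 (−2.60), Top2a (−3.19), Mcm2 (−3.65) and E2f2 (−3.35). The same turn was seen in genes of iron uptake, antibody recycling, cofactor synthesis and lipid mediators, in Tfrc (−2.91), Fcgrt (−2.79), Pts (−1.63), Spr (−2.03), Nqo1 (−1.25) and Alox5 (−2.57), and in the regulators Irf4 (−1.88), Trp53 (−1.52) and Bmf (−4.04). It was seen also in C1qa (−1.42) and Tgfbi (−2.36), which encode secreted proteins, and in Il18r1 (−12.66), which was undetected on the iNOS-/- M1 arrays, so its value depends on the floor. The opposite turn, lower before activation and higher after it, was seen in receptors and surface proteins, in Fcgr4 (4.15), Marco (3.82), Cd14 (2.27), Tlr1 (2.67), Tlr6 (2.20) and Slc7a2 (2.70). Inhibitors of signalling turned in this way as well, in Dusp2 (3.87), Irak3 (1.71) and Mdm2 (2.00), as did Insig2 (1.64) and Mitf (2.42). The remaining genes with this turn were Tgm2 (3.61), Chi3l3 (2.01) and Mmp13 (3.39), which encode a transglutaminase, a chitinase-like protein and a collagenase. Unstimulated iNOS-/- arrays differed from unstimulated WT arrays in markers of dendritic cells too, and the part of this in the interactions was not tested.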

How the results depend on the processing

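The M1 comparison called 6723 probes, and between 5176 and 7592 under the alternatives other than 2-fold calls, of which 5176 to 6270 with 1 array left out. The interaction called 5815 probes, and 4512 to 5265 with 1 array left out. The unstimulated comparison called 4447 probes, and 2697 to 4419 with 1 array left out, the fewest without the WT unstimulated arrays (2798 without the first and 2833 without the second) or the iNOS-/- unstimulated arrays (2697 and 2770). Restricting calls to changes of at least 2-fold left 3455, 1966 and 3873 probes in the M1, unstimulated and interaction comparisons. Samples with the same replicate number did not deviate together (correlations of −0.04 to 0.02), so the numbers were not treated as pairs, and with the replicate number as a block 6271, 3887 and 5314 probes were called. With an intercept in the scaling line 7154 probes were called in the M1 comparison, 56.5% of them higher, against 49.9%. Of 3114 values of the 184 named genes under the alternatives, 3074 kept their direction and their side of the threshold, 26 lost the call and 14 gained it. Among those that gained it were Nlrp3 and Itgax under neqc (adjusted p = 0.00264 and 0.0227) and Hmox1 (adjusted p = 0.0461). Of 59 list medians, 41 kept their sign under all of the alternatives run. Those of the respiratory chain, cytosolic ribosomal proteins, Toll-like receptors and NRF2 targets were among the 18 that did not. The median nearest to 0 under any alternative was −1.02 for mitosis genes, −0.37 for Fc receptors, −0.08 for C-type lectins and scavenger receptors, −0.22 for ribosome biogenesis, 0.48 for inflammasome genes and 0.29 for interferon and cytokine receptors. With genes undetected in a group set at their bounds, the median was −1.38 for mitosis genes, −1.01 for cholesterol synthesis, 0.85 for chemokines, −0.45 for alternative activation, 0.12 for Toll-like receptors and 1.30 for stromal markers, and moved less in the other lists. The cause of these shifts was not tested. Differences of probes near the background are limited by the signal, since values under 1 share one floor. Where an array of the dimmer group lay under the lowest detected signal, the size of the change moved with the processing. The log2 fold change nearest to 0 under any alternative was 2.09 for Il12b, 1.36 for Pttg1, −2.38 for Scd2, −1.65 for Tlr8 and −1.51 for Bmf.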

Other observations

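Gene groups that the comparisons above did not describe included the cytoskeleton and chromatin. Of the actin genes and actin-binding proteins, 17 of the 32 genes tested were called higher and 2 lower, with a median log2 fold change of 0.36. Under quantile normalization 8 were called higher and 8 lower, with a median of 0.07, and under neqc 9 and 10, with a median of 0.06. Of the heat shock chaperones, 12 of the 24 genes tested were called higher and 2 lower, with a median log2 fold change of 0.32. Under both neqc and quantile normalization 10 were called higher and 7 lower, and the fewest called higher under the alternatives was 6. Histone genes, many of which are near-identical copies whose probes may share transcripts, had 20 of 49 called higher and 12 lower. Genes of the vacuolar proton pump, which acidifies lysosomes, had 3 of 15 called higher and 1 lower, with a median of 0.12 that turned to −0.36 under quantile normalization, with 2 higher and 6 lower.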
